A study of Mus musculus with 188 samples.

Results

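Ly6d, Lypd3, Ly6g6c, Ly6g6e, Ly6a and Ly6e, 6 genes of the Ly6 and uPAR family, were followed across single basal keratinocytes of mouse tail epidermis. The genes were taken by symbol from the 49585 gene rows of the count table, and each symbol matched 1 row. They were chosen by the correlation of Ly6d with early differentiation transcripts across these cells, where Ly6d leads all genes, and by membership of its family, so the relation of these genes to differentiation is described here and not tested. The cells came from the interfollicular epidermis of Lrig1-CreERT2/RosaYFP mice at postnatal day 20 and form 1 group, with 94 on each of 2 plates. They had been sorted as Cd34-, Itga6+ and YFP-. In this strain CreERT2, an inducible Cre recombinase expressed from Lrig1, a gene of the upper hair follicle, can switch on a yellow fluorescent protein. The sort keeps integrin-bearing cells that carry neither the bulge marker CD34 nor the reporter. The labels do not say whether or when the recombinase was induced, so a cell without the reporter may still have expressed Lrig1. Each cell was made into a Smart-seq2 library, which copies polyadenylated RNA into full-length cDNA. No label names an animal. The group was therefore treated as 1 sample and no p-value was computed.

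Proteins of the Ly6 and uPAR family share a small, cysteine-rich fold of finger-like loops. Most are held on the outer face of the cell by a glycosylphosphatidylinositol (GPI) anchor, and a few, such as the SLURP proteins, are secreted. The uPAR protein, encoded by Plaur, is the cell surface receptor of urokinase. In the epidermis, basal cells rest on the basement membrane and express Krt5 and Krt14. As they leave it they take up Krt1 and Krt10, and several family members are known from that suprabasal compartment.

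Gene counts per cell ran from 79868 to 1093805 (median 369991), and 5821 to 8720 genes were detected. The sorted identity was checked on its markers. Krt14 exceeded its background in 88 and 79 cells of the plates, Krt10 in 26 and 38, Itga6 averaged 646 ± 400 CPM (counts scaled to a common total of gene counts per cell, mean ± SD over all cells), and Cd34 had 0 reads, which allows a share of cells with a read of up to 1.60%. Reads had crossed between wells: from each 10000 reads of a source well, 25.6 appeared in another well of the same lettered row on the same plate, 25.3 in a well of that row on the other plate, 11.8 in a well of the same column and 1.04 elsewhere. The expected stray share of a cell ran from 2.86% to 47.8% (median 8.96%). A gene is called above background in a cell where its count exceeded 3 times the expected stray reads and reached 10 CPM.

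The 6 genes lie on 3 chromosomes of the mouse genome (GRCm38). Ly6d (ENSMUSG00000034634.7, chr15:74762056-74763620, minus strand), Ly6e (ENSMUSG00000022587.14, chr15:74955051-74959905, plus strand) and Ly6a (ENSMUSG00000075602.10, chr15:74994877-74998031, minus strand) sit together on chromosome 15. Ly6g6c (ENSMUSG00000092586.8, chr17:35065388-35070050, plus strand) and Ly6g6e (ENSMUSG00000013766.11, chr17:35076902-35078804, plus strand) are neighbours in the major histocompatibility complex region of chromosome 17. Lypd3 (ENSMUSG00000057454.5, chr7:24636550-24641118, plus strand) is on chromosome 7. Exons of 3 of these genes overlap a gene on the opposite strand. Lypd3 overlaps the antisense gene Gm26550, which averaged 9.98 CPM, Ly6g6c overlaps Mpig6b at 1.70 CPM, and Ly6g6e overlaps Ly6g6d at 0.175 CPM. No source used here says that reads were counted by strand, and reads of these partners cannot be told apart from those of the family genes.

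Of the 6 genes, only 2, Lypd3 and Ly6g6c, matched the RefSeq promoter sequences used here, and both are shown. Lypd3 was above background in most cells and Ly6g6c in a minority. Each sequence is the 250 bases before the RefSeq start on GRCm38.p6, 5′ to 3′ on the plus strand. Capitals mark matches, on either strand, to CACCC, the core of the box bound by Krüppel-like factors, and to the core promoter element TATAAA. The motif TGANTCA, the core of the AP-1 site, was searched in the same way.
Lypd3 promoter, chr7:24636320-24636569: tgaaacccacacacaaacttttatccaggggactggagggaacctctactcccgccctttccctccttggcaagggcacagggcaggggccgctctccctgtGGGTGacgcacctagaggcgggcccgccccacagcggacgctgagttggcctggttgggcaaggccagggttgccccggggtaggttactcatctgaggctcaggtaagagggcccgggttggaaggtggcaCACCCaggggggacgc
Ly6g6c promoter, chr17:35067075-35067324: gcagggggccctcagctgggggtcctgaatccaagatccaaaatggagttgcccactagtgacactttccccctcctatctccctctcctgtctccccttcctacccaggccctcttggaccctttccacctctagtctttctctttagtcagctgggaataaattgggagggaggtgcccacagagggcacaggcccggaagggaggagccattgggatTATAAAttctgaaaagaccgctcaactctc
The Lypd3 window had a GC content of 65.2% and 2 CACCC matches, which begin at positions -148 and -16 from the start, and no TATAAA match. The Ly6g6c window had a GC content of 55.2%, 1 TATAAA match at position -30 and no CACCC match. Neither held TGANTCA. Among 32851 mouse promoter windows of this length, 52.01% held CACCC, 12.4% TATAAA and 6.75% TGANTCA, so the CACCC matches are common letters. For both genes the RefSeq start lies inside the gene as annotated by GENCODE. The Ly6g6c window lies wholly inside the annotated gene, and the Lypd3 window overlaps it at its end.

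Ly6d was found in nearly all cells. Its level ran from 2215 to 32917 CPM with a median of 10377 CPM and a mean of 12022 ± 6107 CPM (SD, 94 cells on each of 2 plates). It took 1.20% of all gene reads. Ly6d encodes a GPI-anchored antigen that is also a surface marker of the early B lineage, and its human counterpart, E48, is a keratinocyte antigen. It exceeded its background in 180 cells, 95.7% (exact Clopper-Pearson 95% interval 91.8% to 98.1%), 90 on each plate. The plate medians were 9764 and 11045 CPM.

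Ly6a and Ly6e were also found in nearly all cells. Ly6a, known as Sca-1 and used as a surface marker of blood stem cells and of basal keratinocytes, reached 6072 CPM with a median of 1649 CPM and a mean of 1765 ± 1023 CPM. It exceeded its background in 89 and 85 cells of the plates, 92.6% in all (87.8% to 95.9%). Ly6e, an interferon-inducible antigen that in mice is also the receptor of the placental fusion protein syncytin-A, ran from 70.1 to 1817 CPM with a median of 471 CPM and a mean of 498 ± 275 CPM, and exceeded its background in 83 and 88 cells of the plates, 90.96% in all (85.9% to 94.6%). The plate medians were close, 1686 and 1610 CPM for Ly6a and 463 and 471 CPM for Ly6e.

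Lypd3 varied far more between cells. This gene encodes C4.4A, a structural relative of uPAR in squamous epithelia. Its mean was 497 ± 550 CPM. Its level ran from 15.3 to 3967 CPM with a median of 302 CPM, and its coefficient of variation was 1.10, against 0.551 for Ly6e, 0.579 for Ly6a and 0.508 for Ly6d. It exceeded its background in 65 cells on plate 1 and 74 on plate 2, 73.9% in all (67.05% to 80.1%).

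Ly6g6c and Ly6g6e, whose products are less studied, were confined above background to a minority of cells. The median of Ly6g6c was 9.70 CPM, where stray reads alone gave an expected median of 8.84 CPM, and its highest cell reached 6199 CPM. It exceeded its background in 38 cells, 20.2% (14.7% to 26.7%), 14 on plate 1 and 24 on plate 2, and 10 cells held 78.1% of its reads. The plate means were 63.1 ± 205 and 206 ± 799 CPM (SD, n = 94 cells each), a difference smaller than the spread on either plate. Ly6g6e had a median of 3.27 CPM against 3.25 CPM expected, and a highest value of 839 CPM. It exceeded its background in 34 cells, 18.1% (12.9% to 24.3%), 15 on plate 1 and 19 on plate 2, and 10 cells held 62.4% of its reads. Low values of these 2 genes therefore lie at the level of stray reads and were not read as expression.

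**Figure D1:**
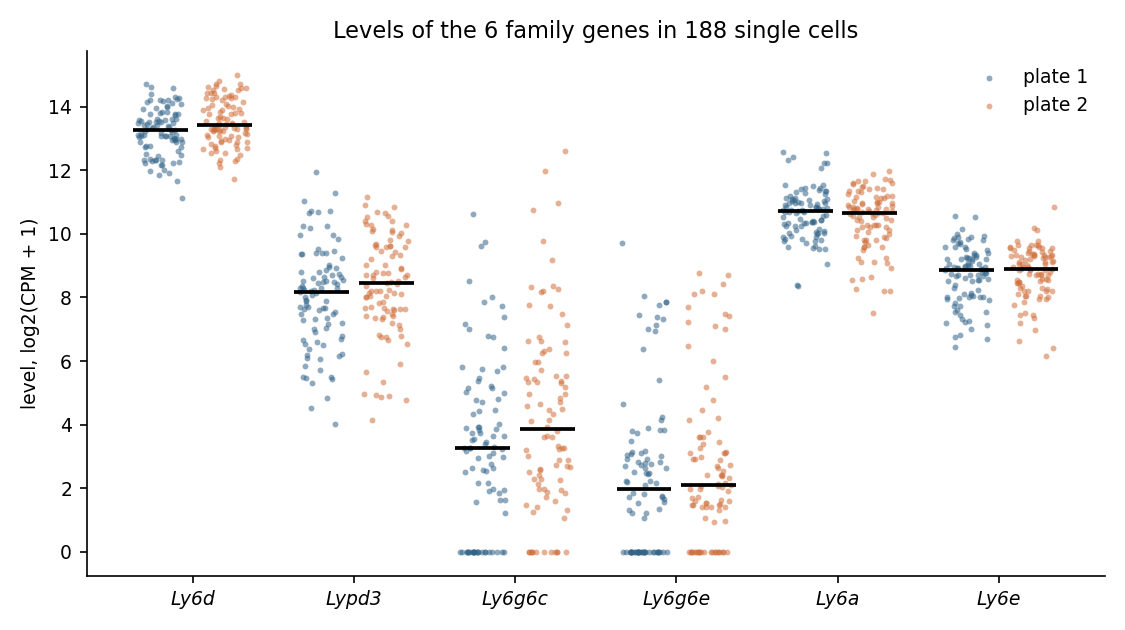
Level of each gene as log2(CPM + 1) in single cells, with 94 cells on plate 1 (blue) and 94 on plate 2 (orange), 1 point per cell and black lines at the plate medians. Ly6d has a median of 10377 CPM, and Ly6g6c and Ly6g6e have medians of 9.70 and 3.27 CPM with tails up to 6199 and 839 CPM.

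**Figure D2:**
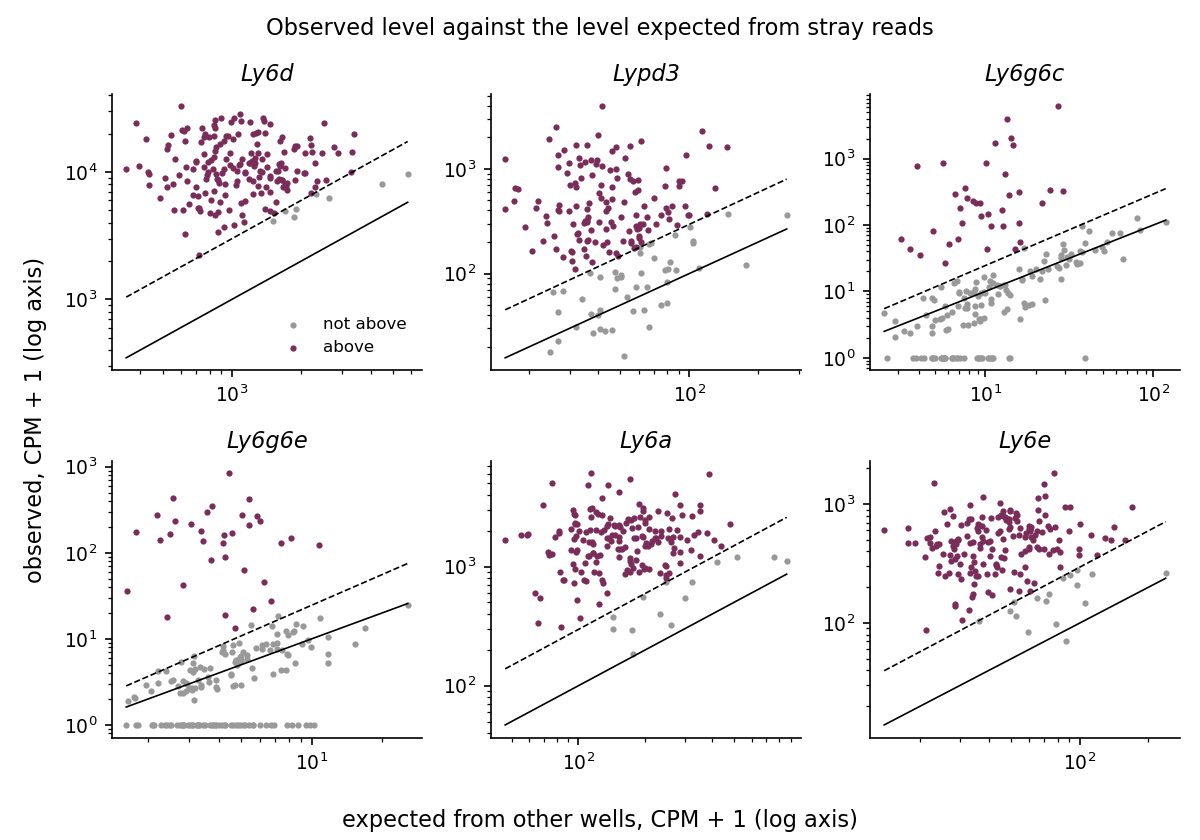
Observed level against the level expected from stray reads of other wells, both as CPM + 1 on log axes, 1 point per cell. The solid line marks equal values and the dashed line 3 times the expected level; purple cells are above background, 95.7% of cells for Ly6d, 92.6% for Ly6a, 90.96% for Ly6e, 73.9% for Lypd3, 20.2% for Ly6g6c and 18.1% for Ly6g6e.

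Per kilobase of annotated exon, the order of the medians was Ly6d at 13948 CPM per kb, Ly6a at 1369, Lypd3 at 182.9, Ly6e at 124.4, Ly6g6c at 7.09 and Ly6g6e at 2.57. The annotated exon length, 3784 bases for Ly6e and 1649 bases for Lypd3, decides the order of this pair, whose medians without it are 471 and 302 CPM; the other places are the same in CPM. Ly6d was higher than Ly6a in every cell, and Ly6a was higher than Lypd3 in 90.4% of cells. Lypd3 exceeded Ly6e in 64.9% of cells (57.6% to 71.7%), and their interquartile ranges overlapped, so these neighbours did not separate beyond their spread. The same held for Ly6g6c and Ly6g6e, which stood in this order in 64.9% of cells, both near the stray level.

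The cell-to-cell spread was compared with that of the spike-in RNAs, which were added equally to every well. The fitted trend has no floor: its constant term reached the lower bound of 1e-06 on both plates, so the trend keeps falling with the mean and the ratios of abundant genes such as Ly6d and Ly6a come out large. A gene was counted as variable where the squared coefficient of variation reached 2 times the trend of the spike-ins on both plates, with a mean of at least 50 CPM; 2.12% of the 3685 genes tested met this. On the plate with the smaller ratio, Ly6d stood at 17.5 times the trend, Ly6g6c at 4.46, Lypd3 at 3.51 and Ly6a at 3.50, and these 4 genes were counted. Ly6e stood at 1.03 times the trend and was not counted. Ly6g6e averaged 35.3 ± 96.3 CPM and was below the minimum. The ratio of Ly6g6c was 4.46 on plate 1 and 23.4 on plate 2, where its highest cells lay.

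Early differentiation was scored over 12 genes as the average of their z scored log2(CPM + 1), among them Krt1, Krt10, Krtdap, Calm4 and Dsg1a, and none of the 6 family genes is in it. A gene was counted as higher with the score when its Spearman rho across cells was at least 0.3 on both plates. Of the 6 genes, which all passed the filter on low values, 3 were counted as higher and 0 as lower, and 0.589% of the 9333 genes tested were counted as higher and 0.621% as lower. Nothing is read from this comparison, since the genes were chosen with it in view. The cells share 1 sequencing pool. Across them, rho with the total counts stayed between -0.080 and 0.017 for the 6 genes, and rho with the expected stray share between -0.024 and 0.074. On single plates the values were wider. They were widest for Ly6d, at -0.173 and 0.096 on plates 1 and 2 with the total counts and 0.145 and -0.133 with the stray share.

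For Ly6d, rho with the early score was 0.737 (Pearson's r 0.754, 94 cells on each plate), 0.812 on plate 1 and 0.658 on plate 2, and the gene stood first among all genes tested. Lypd3 had 0.555 (r 0.587), 0.468 on plate 1 and 0.611 on plate 2. Ly6g6e had 0.458 (r 0.632), 0.346 and 0.561, and with expected stray reads subtracted it fell below the rule at 0.278 on plate 1. Ly6g6c had 0.410 (r 0.539) but 0.269 on plate 1 and 0.518 on plate 2, and so missed the rule on 1 plate. With expected stray reads subtracted, Ly6g6c had 0.317, or 0.210 and 0.416 on the plates. Ly6a had -0.037 and Ly6e -0.178, and the median over all genes tested was -0.006. Without subtraction of stray reads, the correlation was thus above 0.4 for 4 of the genes and below 0 for Ly6a and Ly6e. But with spike-in counts as size factors Ly6a and Ly6e turned to 0.305 and 0.219, where the median over all genes was 0.131. With size factors from pooled cells Ly6a stood at 0.016.

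The 4 genes went the other way with the score of 15 basal genes such as Krt14, Itga6, Col17a1 and Trp63. Spearman's rho with that score was -0.634 for Ly6d, -0.489 for Lypd3, -0.313 for Ly6g6e and -0.282 for Ly6g6c, against 0.029 for Ly6a and 0.109 for Ly6e. On the plates it was -0.655 and -0.628 for Ly6d and -0.365 and -0.605 for Lypd3. Ly6g6e, at -0.244 and -0.380, and Ly6g6c, at -0.121 and -0.421, did not reach -0.3 on both plates. The basal and early scores themselves had a rho of -0.648. With the S phase score the values were -0.383 for Ly6d, -0.328 for Ly6g6c, -0.312 for Ly6g6e and -0.266 for Lypd3, and 0.164 for Ly6a and 0.070 for Ly6e. With the score of late differentiation, which covers cornified envelope genes such as Lor and Flg, rho was only 0.072 for Ly6d, 0.153 for Lypd3, 0.142 for Ly6g6c and 0.048 for Ly6g6e. The late genes summed to a median of 92.9 CPM per cell. Spearman's rho with the spike-in share, which is higher in cells with less RNA, was -0.181 for Ly6d, -0.206 for Lypd3 and -0.138 for Ly6g6c. On plates 1 and 2 it was -0.063 and -0.250 for Ly6d, -0.194 and -0.247 for Lypd3, and 0.036 and -0.305 for Ly6g6c. With the mitochondrial share rho was -0.202 for Ly6d (-0.152 and -0.321 on the plates) and -0.123 for Lypd3 (-0.051 and -0.259). The part of RNA content and cell quality in these relations was not tested.

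**Figure D3:**
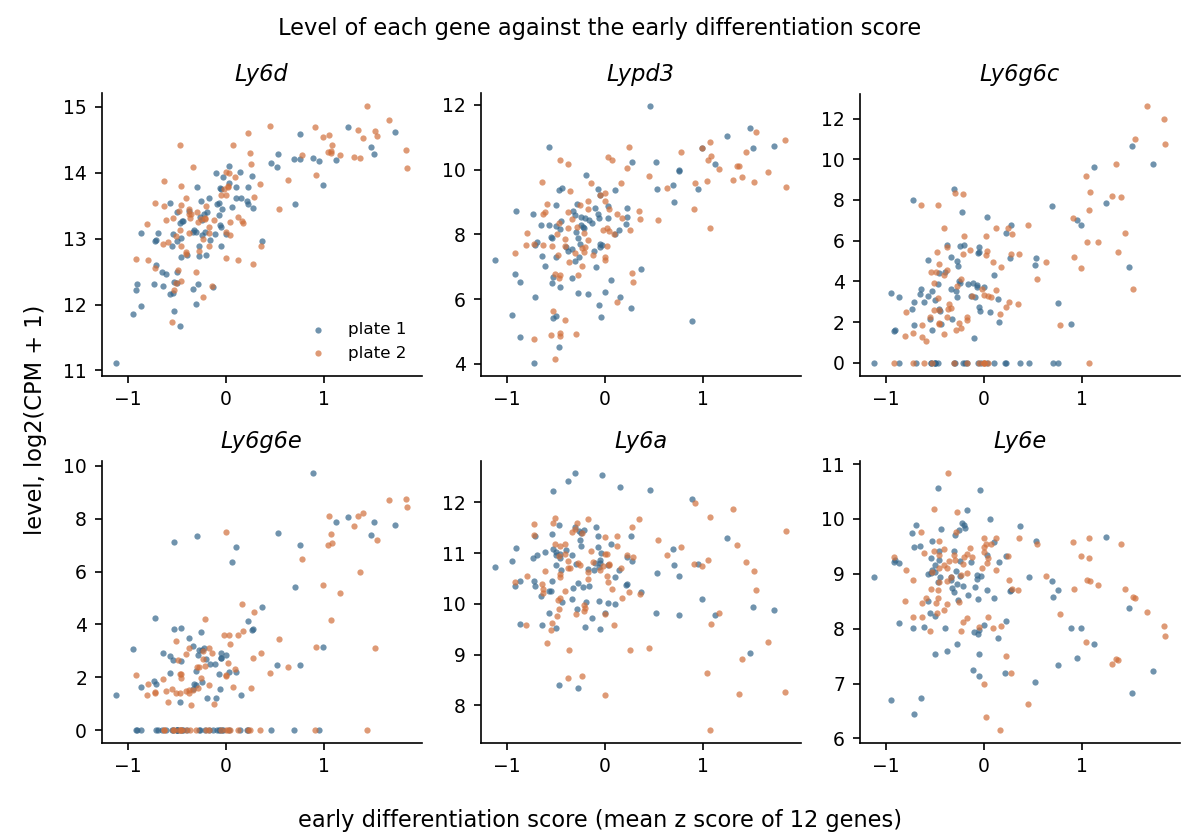
Level of each gene as log2(CPM + 1) against the early differentiation score, a mean z score over 12 genes, with plate 1 in blue and plate 2 in orange and 1 point per cell. Ly6d is higher in cells of higher score (rho 0.737) up to the cells with Krt10 and not Krt14, within which its rho is 0.112, Lypd3 climbs with more scatter (0.555), Ly6g6c and Ly6g6e are high mainly in cells of high score, and Ly6a and Ly6e show no such climb (-0.037 and -0.178, but 0.305 and 0.219 with spike-in size factors).

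Cells were next placed by their keratins. Krt14 was above background without Krt10 in 68 and 54 cells of the plates, both were in 45 cells, Krt10 without Krt14 was in 19, and 2 cells had neither. A keratin left out of a class did not exceed its background, which varies with depth and stray share, but was not necessarily absent. For Krt14, 1 cell with neither had 36973.5 CPM and 1 cell with Krt10 alone had 13155 CPM. Median depths of the classes were 344702, 442266, 363401 and 91627 counts in the same order. Krt10 is in the early score, so these classes are not independent of it. Ly6d had a median of 8658 CPM (range 2215 to 21990) in cells with Krt14 alone, 15200 CPM (6680 to 26553) in cells with both and 20896 CPM (14437 to 32917) in cells with Krt10 alone. The ranges overlap, and each later class starts higher. Within the classes, the rho of Ly6d with the early score was 0.466, 0.737 and 0.112 in the same order. The Lypd3 medians were 211, 522 and 1503 CPM in the same order, and the single highest Lypd3 cell belonged to the first class.

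Ly6g6c and Ly6g6e were above background in most of the cells with Krt10 alone and in a minority of the others. Their medians in the cells with Krt14 alone and with both keratins, 8.58 and 6.72 CPM for Ly6g6c and 2.43 and 2.11 CPM for Ly6g6e, were at the stray level, and in the cells with Krt10 alone they were 232.5 and 164.9 CPM. Ly6g6c exceeded its background in 16 of the 19 cells with Krt10 alone, 84.2% (60.4% to 96.6%), in 10 of the 45 with both and in 12 cells with Krt14 alone, 9.84% of that class (5.19% to 16.6%). Ly6g6e exceeded its background in 16 of the 19, in 12 of the 45 and in 6 cells with Krt14 alone, 4.92% (1.83% to 10.4%). On plate 1 alone the shares in cells with Krt10 alone were 4 of 6 for Ly6g6c and 5 of 6 for Ly6g6e, and on plate 2 they were 12 of 13 and 11 of 13.

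Ly6a and Ly6e had their lowest medians in the cells with Krt10 alone. Ly6a stood at 1686, 1669 and 977 CPM over the 3 classes and Ly6e at 502, 464 and 258 CPM. The ranges of the classes overlapped widely for both genes. These medians are in CPM, and the classes were not compared with spike-in size factors. On that scale the rho with the early score was 0.305 for Ly6a and 0.219 for Ly6e. Ly6a exceeded its background in 14 of the 19 cells with Krt10 alone and Ly6e in 15.

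**Figure D4:**
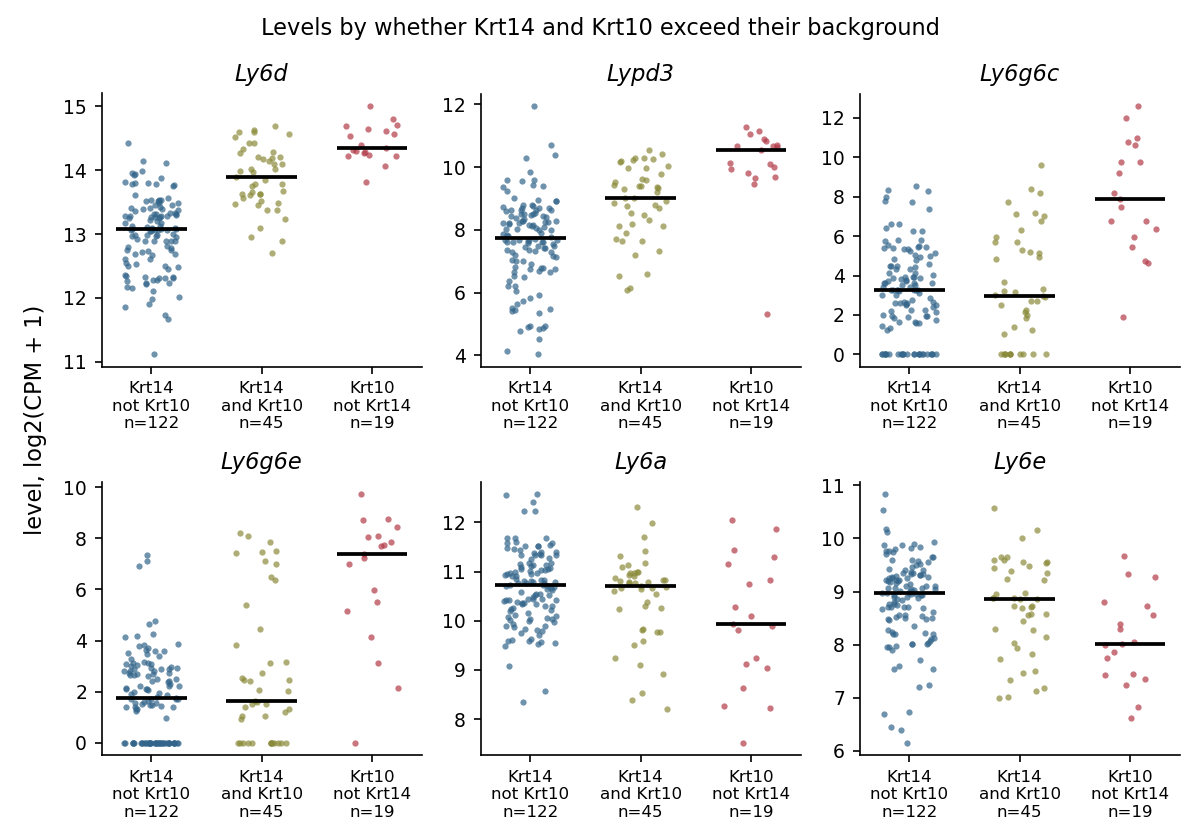
Level of each gene as log2(CPM + 1) in cells with Krt14 above background and not Krt10 (68 and 54 on the plates), 45 cells with both and 19 with Krt10 and not Krt14, 1 point per cell and black lines at the medians. The Ly6d medians are 8658, 15200 and 20896 CPM, and Ly6g6c and Ly6g6e reach medians of 232.5 and 164.9 CPM in the last class only.

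Among the pairs of family genes, Ly6d and Lypd3 were the most alike, with a rho of 0.598 (r 0.599), 0.532 on plate 1 and 0.640 on plate 2. In the 65.96% of cells whose Krt10 was not above background the rho of this pair was 0.373. Lypd3 was above background without Ly6d in 2 cells and Ly6d without Lypd3 in 43. Over all cells, Ly6d was above background in 95.7% and Lypd3 in 73.9%, so these counts say little about the pair. Ly6g6c and Ly6g6e, the neighbours on chromosome 17, had a rho of 0.436, 0.418 and 0.448 on the plates. Most of the cells ranked lie at the stray level of these genes; with the expected stray reads subtracted it became 0.362, with 0.363 on either plate. They were above background together in 20 cells, which is 52.6% of the Ly6g6c cells and 58.8% of the Ly6g6e cells, Ly6g6c alone in 18 and Ly6g6e alone in 14. All 38 Ly6g6c cells and all 34 Ly6g6e cells also had Ly6d above background, as did 95.7% of all cells. Ly6d had a rho of 0.301 with Ly6g6c and 0.272 with Ly6g6e. Ly6a and Ly6e, which lie on the same stretch of chromosome 15 as Ly6d, had a rho of -0.088 and -0.146 with it, and 0.174 with each other. Lypd3 and Ly6a had -0.226.

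**Figure D5:**
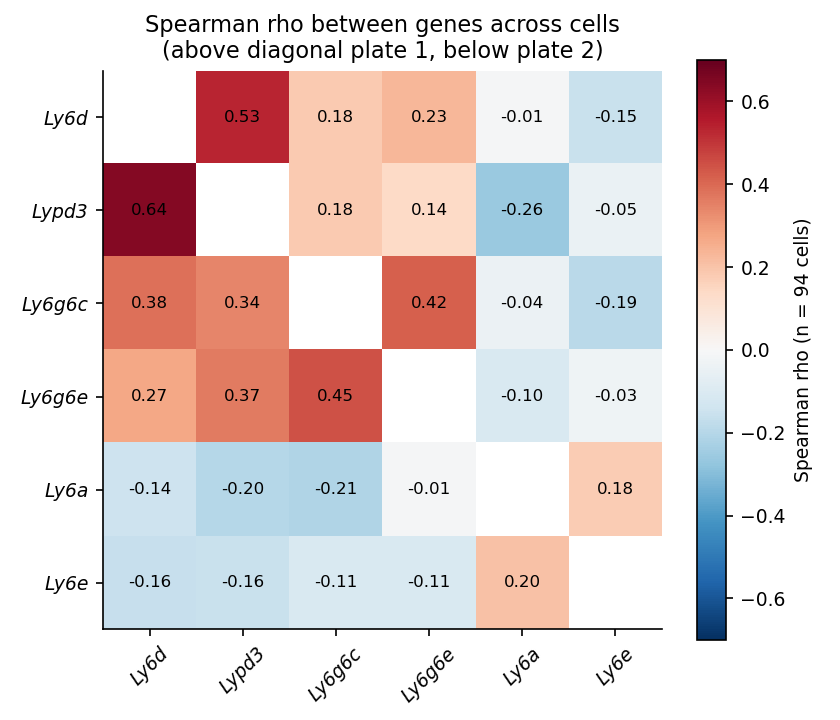
Spearman rho of log2(CPM + 1) between the 6 genes across the 94 cells of plate 1 (above the diagonal) and the 94 cells of plate 2 (below it), with red above 0 and blue below. The Ly6d and Lypd3 pair (0.53 and 0.64) and the Ly6g6c and Ly6g6e pair (0.42 and 0.45) have the 2 highest values on each plate.

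Individual cells show where these relations hold and where they do not. The highest Ly6g6c cell, in row A and column 17 of plate 2, had 6199 CPM of it with 418 CPM of Ly6g6e, 28502 CPM of Ly6d and 25133 CPM of Krt10. The next, in column 22 of the same row, had 4014 CPM of Ly6g6c, 431 CPM of Ly6g6e and 45289 CPM of Krt10. The highest Ly6g6e cell, in row E and column 11 of plate 1, had 839 CPM of it but 2.78 CPM of Ly6g6c and 38.9 CPM of Lypd3, with 13225 CPM of Krt10. The highest Lypd3 cell, in row G and column 12 of plate 1, had 3967 CPM of it and no read of Ly6g6c or Ly6g6e, and its 576 CPM of Krt10 did not exceed the background. High Ly6g6e was therefore seen without Ly6g6c, and high Lypd3 without either.

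The genes whose pattern was most like that of Ly6d, ranked among 9344 genes by rho on whichever plate lay nearer to 0, included 5 genes of the early score itself, Calm4, Krtdap, Krt10, Krt1 and Dsg1a, with which Ly6d was chosen. Calm4, a calmodulin-like gene of the epidermis, stood at 0.712, Krtdap, a keratinocyte differentiation gene, at 0.631, and the suprabasal keratins Krt10 and Krt1 at 0.631 and 0.561. Perp, a desmosomal target of p63, stood at 0.607 and Dsg1a, a desmosomal cadherin, at 0.529. Gltp, a glycolipid transfer protein, stood at 0.595, Lgals3, a galectin, at 0.587, Cdkn1a, which encodes p21, a brake on the cell cycle, at 0.578, and Lypd3 at 0.532. In all, 0.621% of genes reached 0.3 on both plates with Ly6d and 0.674% reached -0.3. The most opposite gene was Lamb3, a chain of laminin-332 in the basement membrane, at -0.568, followed by Tns1, which links integrins to actin, at -0.532, the Notch ligand Jag2 at -0.519 and Dlk2 at -0.507. Fam213a at -0.501, Sparc at -0.488, Wls, which carries Wnt ligands to the surface, at -0.477, Ftl1 at -0.474, Wnt10a at -0.463 and Col17a1, the hemidesmosomal collagen, at -0.456 completed the list.

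Lypd3 was most like Sfn, the epithelial 14-3-3 sigma, at 0.558, then Ly6d at 0.532, Gm26550 at 0.495, Ezr, which links membrane and actin, at 0.458 and Sbsn, suprabasin, at 0.454. Gm26550 overlaps Lypd3 on the opposite strand, so its value may hold reads of Lypd3 itself. Of all genes, 0.342% reached 0.3 on both plates with Lypd3 and 0.139% reached -0.3. Ly6g6c was most like Ankrd35 at 0.468, Ly6g6e at 0.418, 4833423E24Rik at 0.373, Slurp2, a secreted family member, at 0.361 and Rhov, a small GTPase, at 0.355, and 0.128% of genes reached 0.3 on both plates and 0.0107% reached -0.3. Ly6g6e was most like Ly6g6c at 0.418, Tdh at 0.392, Krt10 at 0.382, Dsg1a at 0.319 and Endou at 0.302, and 0.0535% of genes reached 0.3 on both plates and 0.0321% reached -0.3. Most of the cells ranked in these lists lie at the stray level of Ly6g6c and Ly6g6e. Apart from the pair itself, the part of shared stray reads in both lists was not tested.

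Ly6a and Ly6e had few like genes. For Ly6a, only Ly6c1 reached 0.3 on both plates, at 0.330, which is 0.0107% of genes. Ly6c1 is a close paralog on chromosome 15, and no source used here says how reads shared between the 2 genes were counted. Next came Prim1, a DNA primase, at 0.264, Rpl14 at 0.261, Cenpw, a kinetochore gene, at 0.258 and Tuba1b at 0.253. With Ly6e, 0 genes reached 0.3 on both plates, and the nearest were Tead1 at 0.237, Hnrnpa2b1 at 0.232, Ift81 at 0.229, Gapdh at 0.219 and Krt14 at 0.213. These correlations are weak and are given as values only.

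The rest of the family summed to a mean of 561 CPM per cell, most of it from Cd59a and Ly6c1. Of 45 other Ly6 and uPAR family genes listed, 38 matched a row, 15 of these had no read in any cell, among them Gpihbp1, Lypd2 and Ly6h, and 8 reached 10 CPM in at least 10% of cells. None of these 8 was counted with the early score, and their median rho was -0.022. Cd59a, which protects cells from complement, averaged 286 ± 202 CPM with a rho of -0.010, and Ly6c1 averaged 148.3 ± 142.3 CPM with a rho of -0.160. Slurp2 averaged 21.03 ± 95.9 CPM with a rho of 0.202, and Ly6c2 averaged 19.8 ± 26.7 CPM with a rho of -0.142. Slurp2 was the family gene outside the 6 that was counted with Ly6g6c, at a rho of 0.445. That rho ranks all cells, most of them at the stray level of Ly6g6c, and was not recomputed with stray reads subtracted.

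Plaur itself averaged 0.490 ± 5.58 CPM and exceeded its background in 1 cell. Of 11 genes of the urokinase system, 5 could be tested and 0 were counted with the early score. Serpinb5, the epithelial serpin maspin, averaged 1233 ± 666 CPM with a rho of 0.348, or 0.221 and 0.468 on the plates. Serpinb6a averaged 315 ± 242 CPM with a rho of -0.243, and Serpinb2, the plasminogen activator inhibitor PAI-2, averaged 236 ± 448 CPM with a rho of 0.086. Plau, which encodes urokinase, averaged 12.8 ± 40.9 CPM with a rho of 0.157.

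For the machinery that makes and attaches GPI anchors, the values with Ly6d were near those of all genes. All 27 matched genes of that list could be tested. Of these, 0 were counted with the early score or with any of the 6 genes. Over all genes, 0.621% were counted as higher with Ly6d and 0.674% as lower. A count of 0 in this list is near that share and is not read as a result. The median rho was 0.014 with the score and -0.006 with Ly6d, against -0.010 with Ly6d over all genes. Pgap2 averaged 157.01 ± 134.03 CPM and Dpm2 140.9 ± 131.6 CPM. Of 23 other genes of GPI-anchored surface proteins, 14 could be tested and 1, the ephrin Efna3 at 60.6 ± 62.6 CPM, was counted as higher with the early score, with a rho of 0.322, 0.303 and 0.355 on the plates. With Ly6d, 1 was counted as lower, Gas1, a hedgehog co-receptor at 215 ± 173.3 CPM, with a rho of -0.370. Prnp, Cd109 and Cdh13 averaged 303 ± 214, 289 ± 190 and 280 ± 224 CPM with a rho of -0.032, 0.067 and -0.306 with the early score.

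Ly6a and Ly6e are known to respond to interferon, and that list was read beside them. Of its 26 genes, 10 could be tested, and 6, Isg15, Ifit1, Ifit3, Rsad2, Usp18 and Oasl2, had no read in any cell. None was counted with the early score or with Ly6e, and only Ly6c1 with Ly6a. H2-D1, a class I histocompatibility gene, averaged 365 ± 316 CPM with a rho of -0.112 with Ly6a, and Ifitm3 averaged 134.6 ± 179.4 CPM with 0.087.

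Ly6 genes are also markers of blood cells, and the markers of other cell types were summed. By median the largest sums came from lists of the hair follicle and its gland. The upper hair follicle list summed to 9.61 to 8045 CPM per cell with a median of 252 CPM, the bulge list to 3.71 to 1156 CPM with a median of 182.8 CPM, and the sebaceous gland list to 1.99 to 967 CPM with a median of 118.5 CPM. Values of rho with the upper follicle score lay between -0.031 and 0.110 for the 6 genes, and with the bulge score they were -0.218 for Ly6e and between -0.091 and 0.129 for the others. In these lists Krt17 averaged 150.05 ± 559 CPM, Postn 158.9 ± 180.9 CPM and Scd1 89.5 ± 114.2 CPM. The T cell list summed to 0 to 176.8 CPM per cell with a median of 0, and 7 of its 10 genes, among them Cd3e, Cd3d and Ptprc, had no read. Of what remained, Thy1 averaged 7.48 ± 21.01 CPM. The Langerhans cell list summed to 0 to 383 CPM with a median of 1.59 CPM, 5 of its 10 genes including Cd207 had no read, and Epcam averaged 19.2 ± 53.9 CPM. The fibroblast list summed to 0 to 553 CPM, the melanocyte list to 0 to 602 CPM, the Merkel cell list to 0 to 161.6 CPM and the endothelial list to 0 to 220 CPM, and 3 of 9, 1 of 8, 4 of 8 and 6 of 10 of their genes had no read. The highest marker in the fibroblast list, Dcn, had a rho of -0.138 with Ly6d and 0.112 with Ly6a.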

How the data were processed

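Whole-number read counts per gene were deposited by the authors without normalization, 1 column per cell. Per the submitters' processing notes the tools were STAR 2.5.2b, HTSeq 0.6.0 and cutadapt 1.13 on GRCm38; their parameters, annotation and strand setting were not given in the sources used. CPM are counts over the cell's gene total, without spike-ins, and log2(CPM + 1) was used for correlations. Symbols matched 49326 of 49585 identifiers, and exon lengths and positions come from GENCODE M21. Promoter sequences come from RefSeq. Genes were tested if 10% of cells reached 10 CPM. List scores, over 19 lists of 293 genes, needed 10 CPM in 5% of cells. Stray rates were medians over 102 genes with at least 70% of their reads, and at least 100 reads, in 1 well; wells above 2% of that well's reads were left out. Spike-in trends took the form a1/mean + a0. Doublets were not called. Each column is labelled as a single cell, and whether any well held more than 1 cell was not tested. Calculations used Python 3.11.15, numpy 2.4.6, scipy 1.17.1, pandas 2.3.3 and, for an alternative scaling, scran 1.30.0 in R 4.3.3. The scripts were tested on simulated data. Reads without molecular identifiers count amplified copies, so intervals and limits cover counting error only. The 6 genes and all lists were chosen with earlier results of these data known. The genes named were the 6, the 10 most like Ly6d and 5 most like each other gene, up to 4 of the most abundant genes of each list, and Krt14, Krt5, Krt15, Krt10, Krt1, Itga6, Cdkn1a, Perp and Lgals3; other genes named, such as Plaur, those without a read and the opposite genes, were chosen after their values were seen.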

Additional observations from a re-analysis of the deposited data

How the results depend on the processing

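The count of genes higher with the early score, 3, became 5 with spike-in counts as size factors, where Ly6g6c (0.350 and 0.608 on the plates) and Ly6a (0.301 and 0.304) were also counted, Ly6e (0.224 and 0.179) was not, and the median over all genes was 0.131 instead of -0.006. It was 2 with expected stray reads subtracted and at a limit of 0.4, 4 with cells thinned to 75000 counts and on plate 2 alone, and 3 under the other 8 alternatives. The rho of Lypd3 with Ly6d, 0.598, was 0.697 with spike-in size factors and 0.373 in the cells with Krt10 not above background, an alternative chosen after seeing the data. Within those cells, rho with the early score was 0.477 for Ly6d and 0.277 for Lypd3. The rho of Ly6g6c with Ly6g6e, 0.436, ran from 0.309 with thinned cells to 0.448 over 12 alternatives added after seeing the data. No result changed from called higher to called lower. At 2 and 5 times the expected stray reads, Lypd3 was above background in 80.9% and 55.9% of cells and Ly6d in 98.9% and 81.9%. The share of Ly6g6c cells among cells with Krt10 alone ran from 66.7% to 92.3% over 5 alternatives, and that of Ly6g6e from 82.6% to 88.2%. For Ly6g6c and Ly6g6e, depth and stray reads limit what can be seen: their median counts were 3 and 1 reads per cell. No paired analysis was possible because all cells form 1 group.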
